A study of Brassica rapa and Brassica rapa x Brassica nigra and Brassica nigra with 18 samples.

Results

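The A genes of an allohaploid Brassica were compared with those of its seed parent in anthers at the later of 2 stages, mitosis. The allohaploid (AB) is a synthetic hybrid of B. rapa, the seed parent (genome AA), and B. nigra, the pollen parent (genome BB). The labels give its organism as Brassica rapa x Brassica nigra and its genomes as AB. The comparison used 3 AB libraries against 3 AA libraries, 6 of the 18 in the series, all labelled as anthers with pollen at gametogenesis. The extraction text speaks of flower buds instead, gathered over a span from meiosis to maturity. The growth field of every library, the parents included, names the same cross and the word haploid, and no treatment, cultivar or age is given for any group. Nothing ties the 3 libraries of a group to different plants. A p-value here therefore measures the spread between libraries, which may be technical. Members were the genes whose identifiers start with BjuA, 36454 of the 79644 identifiers of the count table. Of these, 23143 had enough counts to be tested, and 13311 with few or no counts were not.

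Pollen forms inside the anther. After meiosis each haploid microspore divides unequally into a vegetative and a generative cell, and the generative cell divides again to give the sperm cells. Late pollen is known for a store of transcripts of its own, many of them barely present earlier in the anther. In a hybrid with no homologous partner chromosomes, meiosis is often irregular and the pollen that follows may be sparse or abnormal. The label of the stage could not be checked against marker genes, because 0 of the A identifiers are listed among the 51589 genes of a RefSeq-derived B. rapa table. For the same reason genes are described by level, stage, length and parent of origin, without names or functions.

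The AB libraries held between 5596444 and 6050088 A counts each, and the AA libraries between 10268402 and 10398872. In AB, A genes took 49.7% to 49.8% of all counts, and in AA 92.2% to 92.5%. Levels are given as CPM, here A counts scaled to a common library total after TMM correction, so that a level is relative to the other A genes of the same library. Within a group, libraries had Spearman correlations of 0.983 to 0.989 across genes, and between AB and AA they had 0.866 to 0.869. A read from a B copy can fall on an A gene: the BB libraries, from plants with no A genome, placed 5.73% to 5.76% of their counts at mitosis on A genes. A gene is called shared with BB where BB libraries give 10% or more of the summed mean CPM of both parents. There were 2122 such genes, described apart from the 21008 with less. A further 13 tested genes had no counts in either parent.

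In AB, 4199 of the genes not shared with BB had a higher level and 6301 a lower one than in AA, and 10508 did not pass the test. Their log2 differences had a median of -0.07 and quartiles of -0.62 and 0.37. Over all tested A genes, 24.2% were higher and 28.1% lower at an adjusted p under 0.05 (edgeR quasi-likelihood test, Benjamini-Hochberg). A 2-fold difference or more was reached by 1466 higher and 2930 lower genes not shared with BB, beside 11.4% higher and 13.0% lower over all tested A genes. At 8-fold or more the counts were closer, 240 higher and 291 lower. Whether the 3 AB libraries all lay above or below the 3 AA libraries was counted as well. This was so for 4655 genes not shared with BB above and 6867 below, beside 26.3% and 30.7% of all tested A genes.

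The balance of higher and lower genes depended on the scaling. Without TMM factors the median of all tested genes moved to a log2 difference of 0.24, against -0.01 with them, and 7073 genes not shared with BB were higher and 4283 lower. Higher genes made up 40.0% of the called genes with TMM factors and 62.3% without. With library sizes from all genes, where AB libraries hold fewer A counts by construction, the median was -0.64 and the share 8.33%. With limma on log2(FPKM + 1) the median was -0.48 and the share 8.33% as well. Higher genes thus outnumbered lower ones without the factors, and lower ones outnumbered higher ones in the other fits named. A factor common to all genes of a library moves all gene classes alike, so gaps between class medians depend little on it. Counts of higher and lower genes within a class, and the sign of a class median nearer to 0 than the shift of the overall median, are given with TMM factors and are not independent of that choice.

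Genes that were nearly absent at meiosis were more often lower than higher in AB at mitosis. This class was set on the meiosis libraries alone, as genes with a mean of the AB and AA levels under 1 CPM, and those libraries are on neither side of the comparison at mitosis. They do share the fit, and so bear on the spread, the scaling and the genes tested; with the mitosis libraries alone 4599 genes not shared with BB were higher and 5406 lower. Of the 2871 such genes not shared with BB, 1473 (51.3%) were lower in AB and 323 (11.3%) higher. The log2 differences of this class had a median of -0.88 and quartiles of -1.63 and 0.13. The 18137 genes at 1 CPM or more at meiosis had a median of -0.02, with 4828 (26.6%) lower and 3876 (21.4%) higher. The gap between both medians was -0.86. Only the limit of 1 CPM rests on the meiosis libraries alone. The BB share draws on AA levels at both stages, so leaving out shared genes also uses the AA libraries at mitosis. Among meiosis-low genes this tends to drop those low in AA, so the direction of the rest is partly set by the choice. With shared genes included, 1523 of 3233 were lower and 566 higher, beside 28.1% lower and 24.2% higher over all tested A genes. The log2 differences of these 3233 genes were centred on -0.72, and those of the 19910 other tested genes on 0.02. Lower genes also outnumbered higher ones in the class of 3233 without TMM factors, at 1327 against 663. At meiosis the 2871 genes not shared with BB already had a median log2 difference of -0.41, at levels near the floor.

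A gene absent at meiosis enters the test only through its counts at mitosis, and 13238 of the 16471 A genes under 1 CPM at meiosis were not tested. A gene with counts in 1 group alone would pass and also differ, so the class was counted again with genes that had 10 or more counts in all 6 mitosis libraries. There were 1633 such genes not shared with BB. Of these 966 (59.2%) were lower and 206 (12.6%) higher in AB, and their median was -0.90. Shared genes included, the calls for meiosis-low genes under this minimum were 1007 lower against 240 higher. Under the same minimum, 29.5% of the 14414 genes at 1 CPM or more at meiosis were lower and 23.4% higher. For all 16047 genes not shared with BB under it, the shares were 32.5% and 22.3%. The gap of the meiosis-low median to that of the 14414 genes was -0.88. Without that minimum, the meiosis-low class not shared with BB had a negative median at each abundance from 1 CPM upwards. The median was -0.68 for 1671 meiosis-low genes at 1 to 10 CPM at mitosis (mean of AB and AA), -1.09 for 772 at 10 to 100 CPM, -1.23 for 230 at 100 to 1000 CPM and -1.46 for 41 above that. The corresponding medians for genes not low at meiosis were 0.03, -0.04, -0.19 and -0.38. All these abundance classes leave out shared genes, and so depend in part on AA levels at mitosis as well.

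**Figure D1:**
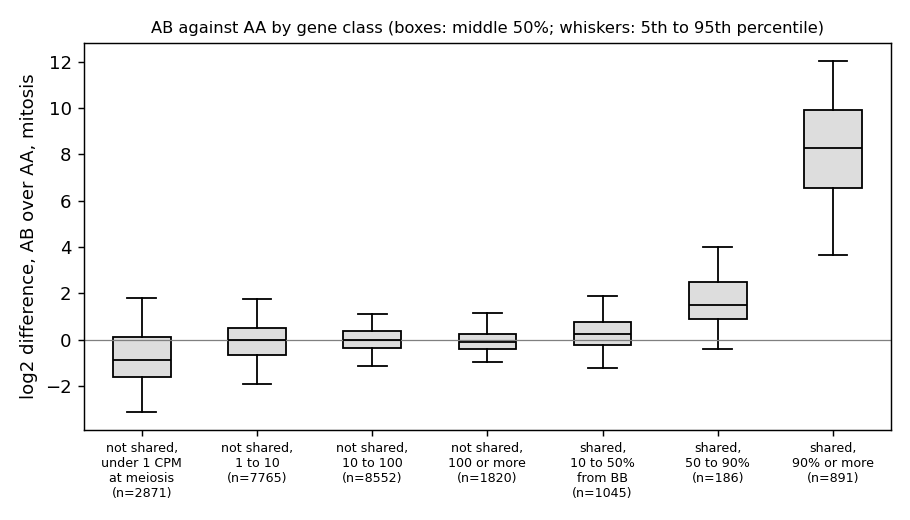
Log2 difference between AB and AA at mitosis for A genes not shared with BB, by their CPM at meiosis, and for A genes shared with BB, by the share of parental CPM that comes from BB. Boxes span the middle 50%, whiskers the 5th to the 95th percentile. The class under 1 CPM at meiosis has its median at -0.88 and the other classes not shared with BB lie between -0.11 and 0.00, while the shared classes lie higher the larger the BB share.

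The same class could be read as a share of the A counts, which needs no scaling factor. Of the A counts of the AB libraries, 14.8%, 14.7% and 15.0% fell on the 3233 meiosis-low genes, shared ones included. In the AA libraries they took 20.1%, 21.0% and 21.6%. The 2 groups did not overlap, and the means were 14.9% ± 0.175 in AB and 20.9% ± 0.783 in AA (SD, n = 3 libraries here and below). The difference was -6.04 percentage points, with p = 0.1 in a two-sided exact permutation test, a value below which a design of 3 against 3 libraries cannot go. At meiosis their share was 0.116% ± 0.00271 in AB and 0.146% ± 0.00155 in AA. Without shared genes the share at meiosis was 0.0901% ± 0.00148 in AB and 0.139% ± 0.00136 in AA. Genes at 1 to 10 CPM at meiosis also took a smaller share at mitosis in AB, at 17.8% ± 0.193 against 23.3% ± 0.258 in AA. Gene by gene these 8725, shared ones included, had a median log2 difference of 0.03 after TMM scaling. Of them 1768 (20.3%) were higher and 1740 (19.9%) lower, beside 24.2% and 28.1% over all tested A genes. The 7765 of them not shared with BB had 1162 (15.0%) higher and 1682 (21.7%) lower, with a median of -0.01. Over all genes not shared with BB the shares were 20.0% and 30.0%. In bulk anthers, fewer cells of a type and less RNA per cell cannot be told apart.

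The shares of the 4 meiosis levels add up to nearly all A counts, so the smaller shares of the 2 lower levels in AB leave larger ones for the 2 upper levels, which are no separate result. Genes at 10 to 100 CPM at meiosis took 37.3%, 37.5% and 37.2% of the A counts in the AB libraries and 30.8%, 30.6% and 30.8% in the AA libraries. Genes at 100 CPM or more at meiosis took 29.8% ± 0.220 in AB and 24.9% ± 0.554 in AA. In both classes the libraries of the groups did not overlap. Gene by gene, the class at 100 CPM or more had a median log2 difference of -0.11 after TMM scaling, with 802 of 1820 genes not shared with BB lower and 522 higher. Shares are taken over all A counts, whereas gene levels are also divided by TMM factors, which were 0.973 to 0.995 in AB and 0.812 to 0.824 in AA.

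**Figure D2:**
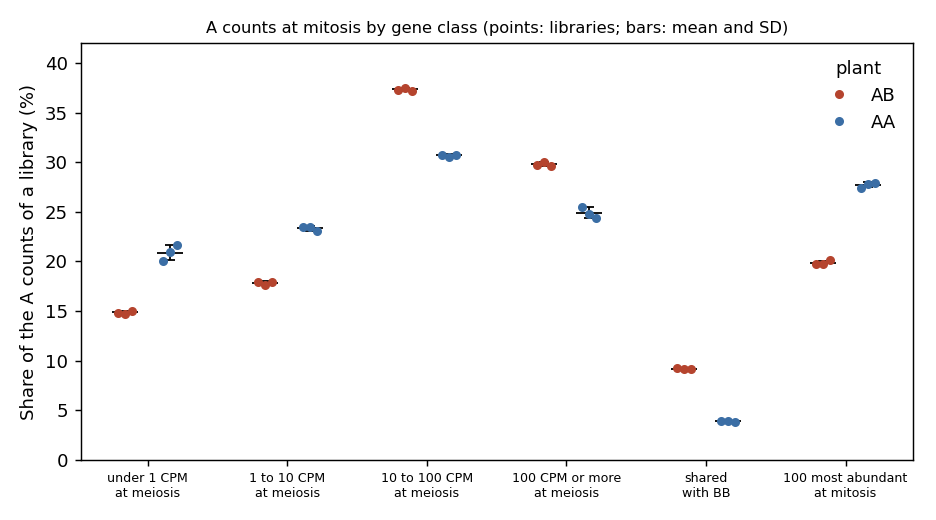
Share of the A counts of each library at mitosis that fell on genes of 4 levels at meiosis, on genes shared with BB, and on the 100 most abundant A genes; the 4 levels are separate classes that, with the untested genes, add up to all A counts, and the last 2 classes overlap them. Points are libraries, bars the mean and SD of 3. AB lies at 14.9% and AA at 20.9% for genes under 1 CPM at meiosis, and AB lies above AA for genes at 10 CPM or more.

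The most abundant A genes of the mitosis libraries took a smaller share of the A counts in AB. The 100 genes with the highest mean of the AB and AA levels, each at 1074 CPM or more, took 19.8%, 19.8% and 20.1% of the A counts in AB. The same genes in AA had 27.4%, 27.8% and 27.9%, again without overlap. Individually 60 of the 100 were lower and 33 higher in AB, and the median log2 difference was -1.06, beside 28.1% lower and 24.2% higher over all tested A genes. Changes of at least 2-fold were found for 51 lower and 17 higher, beside 13.0% and 11.4%. The list came from the libraries that are compared, and a high level in AA or AB alone can place a gene in it. A counts were more concentrated in AA, so a lower level in AB is partly set by the choice. These counts are therefore a description. Only 5 of the 100 were shared with BB. Of the 42 that were low at meiosis 29 were lower and 11 higher, and of the others 31 were lower and 22 higher. Summed over all A genes, 28.0 percentage points of the A counts were placed differently in AB and AA. The genes with a smaller share in AB made up 50% of that sum with 55 genes, and those with a larger share with 276. Meiosis-low genes held 37.8% of the decrease and 16.3% of the increase, beside 14.9% of the A counts in AB and 20.9% in AA. Genes shared with BB, a class that overlaps the meiosis-low one, held 20.8% of the increase. They had 9.18% of the A counts in AB and 3.88% in AA.

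Each of 4 abundant genes not shared with BB is described by its library values. They had the largest gain or loss of CPM among genes that were called, differed at least 2-fold and had no overlap of libraries. Small p-values and separate groups were thus conditions of the choice. BjuA037680 had the highest mean level of all A genes at mitosis. It stood at 10768, 10519.7 and 10949 CPM in the AB libraries and at 36109.5, 35055 and 32627 CPM in the AA libraries. The groups were far apart and each was tight, with means of 10746 ± 216 CPM in AB and 34597 ± 1786 CPM in AA. The log2 difference was -1.69 (SE 0.06, edgeR adjusted p = 1.69e-16).

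BjuA024156 was the second most abundant A gene. Its level was 5415, 5207 and 5455 CPM in the AB libraries and 20839.6, 19276 and 17802 CPM in the AA libraries. All AB libraries were below all AA libraries, with a log2 difference of -1.85 (SE 0.06, edgeR adjusted p = 1.14e-17). At meiosis both genes stood far lower in either plant, and were lower in AB as well. BjuA037680 was at 0.941 ± 0.513 CPM in AB and 13.4 ± 1.91 CPM in AA at meiosis. BjuA024156 was at 1.27 ± 0.488 CPM in AB and 9.95 ± 0.747 CPM in AA.

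BjuA005098 was higher in AB, at 12704, 13142 and 13658 CPM, against 2680.3, 3369.6 and 3841 CPM in the AA libraries. Its log2 difference was 1.998 (SE 0.08, edgeR adjusted p = 1.41e-15). BjuA005987 was at 4090.4, 4184 and 4027 CPM in the AB libraries and at 557, 752 and 967 CPM in the AA libraries. For this gene the log2 difference was 2.43 (SE 0.11, edgeR adjusted p = 9.59e-15), and the AA libraries spread more widely than the AB libraries. At meiosis BjuA005098 stood at 10.1 ± 1.14 CPM in AB and 1.76 ± 0.205 CPM in AA, and BjuA005987 at 55.3 ± 0.780 CPM in AB and 33.8 ± 2.46 CPM in AA. In BB all 4 genes were nearly absent, with at most 0.519 CPM of all counts. The direction and the call of these 4 genes were the same under all 16 alternatives that were run for them.

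**Figure D3:**
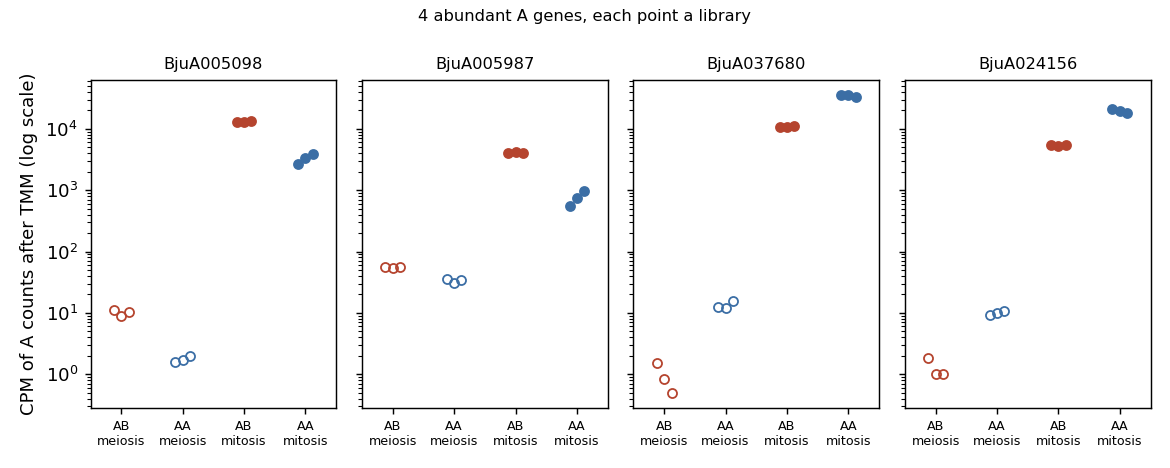
Level of 4 abundant A genes in each AB and AA library at meiosis (open points) and mitosis (filled points), in CPM of A counts after TMM scaling on a log axis. At mitosis the first 2 genes lie higher in AB and the last 2 higher in AA, with no overlap between the groups, which was a condition of their choice.

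The differences at mitosis were largely unlike those at meiosis for genes not shared with BB. At meiosis AB was above AA for 27.7% of all tested A genes and below it for 25.8%, and no library is common to both comparisons. Of the 4199 genes higher in AB at mitosis, 1243 were also higher at meiosis, 1283 were lower and 1673 were not called. Of the 6301 genes lower at mitosis, 1942 were also lower at meiosis, 1580 were higher and 2779 were not called. The log2 differences at both stages had a Spearman correlation across genes of 0.10, where genes are not independent replicates and both stages share the plants' genomes and the gene models. It was 0.07 over the 16412 genes at 1 CPM or more at both stages.

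The difference between both stages was tested by itself, as an interaction of plant and stage. Over all tested A genes 43.5% passed. Among genes not shared with BB, 4810 had a difference between AB and AA that was more positive at mitosis, and 4630 one that was more negative. Of the 1673 genes called higher at mitosis and not called at meiosis, 994 passed this test in the same direction, and of the 2779 called lower at mitosis alone, 1240 did. For the other genes called at mitosis alone, a difference between the stages was thus not shown.

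Of the 1385 genes shared with BB that were higher in AB at mitosis, 1134 were higher at meiosis as well and 38 lower. Of the 205 that were lower at mitosis, 30 were lower and 86 higher at meiosis. The Spearman correlation across the 2122 genes was 0.76. Shared genes were chosen in part for a low AA level over both stages, which by itself places AB above AA at both, so these values are a description of the choice and nothing is read from them.

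**Figure D4:**
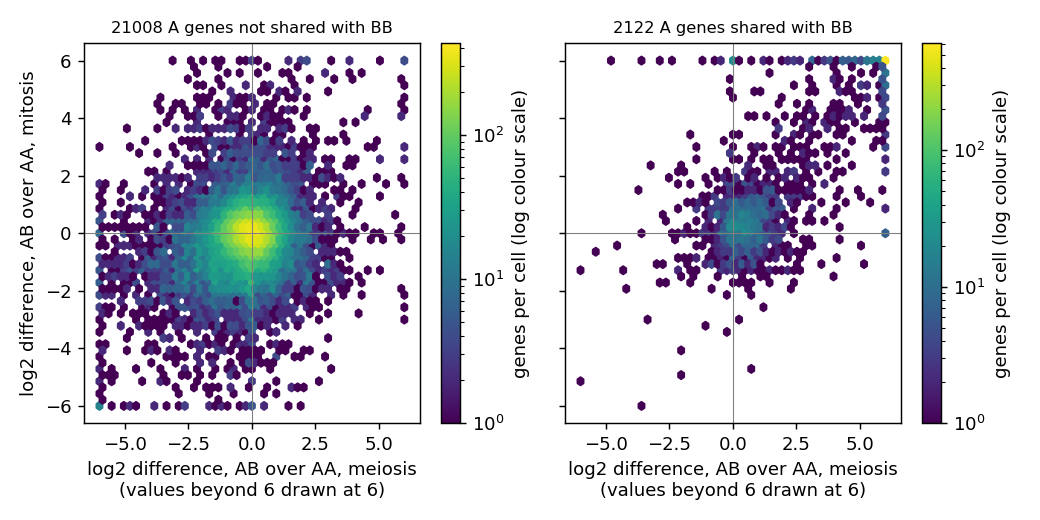
Log2 difference between AB and AA at mitosis (vertical) against that at meiosis (horizontal), for A genes not shared with BB (left) and shared with BB (right); colour gives the number of genes on a log scale and values beyond 6 are drawn at 6. The left cloud is centred on 0 with little slope, and the right one runs along the diagonal to a cluster high at both stages.

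Coding length, worked out from the count and FPKM of each gene, moved with the direction at mitosis. The tested A genes were put in 5 classes of equal size by length, and genes that were shared with BB or low at meiosis were left out. Of 3583 genes of 147 to 600 bp, 569 (15.9%) were higher in AB and 1239 (34.6%) lower, with a median log2 difference of -0.19. Of 3596 genes of 1800 to 13986 bp, 909 (25.3%) were higher and 657 (18.3%) lower, with a median of 0.09. Over all tested A genes 24.2% were higher and 28.1% lower. The medians of the classes between were -0.06, -0.0048 and 0.02, in the order of length, and the median of the shortest class minus that of the longest was -0.28. With at least 10 counts in all 6 mitosis libraries the medians were -0.21 for the shortest class and 0.10 for the longest. At meiosis the medians of the same genes were -0.13, -0.06, -0.02, 0.02 and -0.09 from the shortest to the longest class, and the longest genes did not continue the order. Meiosis-low genes had negative medians in every length class, -1.03 in the shortest and -0.88 in the longest.

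**Figure D5:**
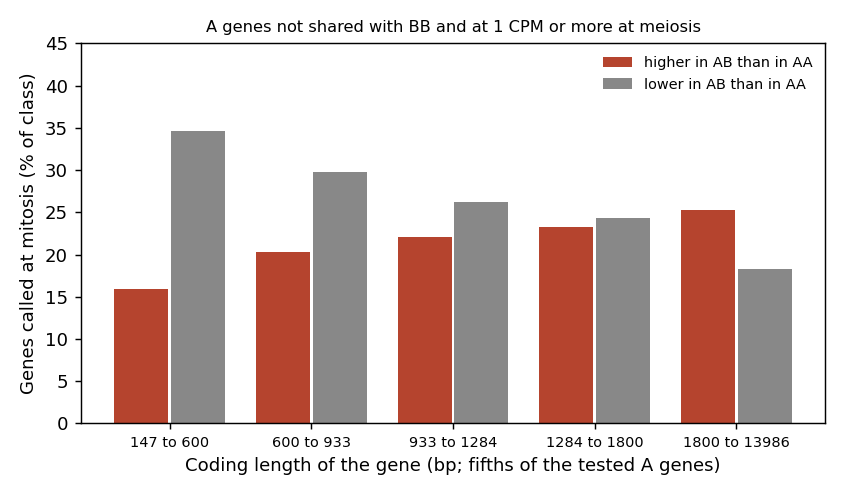
Share of A genes called higher (red) or lower (grey) in AB than in AA at mitosis, by 5 classes of coding length in bp, for genes not shared with BB and at 1 CPM or more at meiosis. The share of lower genes is 34.6% in the shortest class and 18.3% in the longest, and the share of higher genes is 15.9% in the shortest and 25.3% in the longest.

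The A genes shared with BB were mostly higher in AB. Of the 2122, 1385 (65.3%) were higher and 205 (9.66%) lower, with a median log2 difference of 1.50, beside 24.2% higher and 28.1% lower over all tested A genes. By at least 2-fold 1150 were higher, beside 11.4%. The BB share is computed in part from the AA libraries at mitosis, so these counts are a description. When the share was taken from the meiosis libraries alone, 853 of 896 genes with over 90% from BB were higher in AB at mitosis and 14 lower. The median mitosis level of these 896 genes was 10.1 CPM in AB and 0 in AA, so that at least 50% of them passed the filter on low counts with little or no help from AA at mitosis, and this direction too was largely set by the choice. Of the 214 genes with over 50% to 90% from BB 133 were higher and 27 lower, and of the 1066 with over 10% to 50% 363 were higher and 236 lower. Just below the limit, 101 genes with 9% to 10% from BB had a median log2 difference of 0.09, and just above it 96 genes with 10% to 11% had one of 0.04.

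As a group the shared genes made up 9.21%, 9.16% and 9.17% of all A counts in AB, and 3.92%, 3.87% and 3.85% in the AA libraries. Those with 90% or more from BB, 891 genes, took 3.59% ± 0.0317 in AB and 0.0454% ± 0.00191 in AA. For 721 of these that were at 1 CPM of all counts or more in the mean of the parents, the median level was 6.85 CPM of all counts in AB, 0 in AA and 12.7 in BB. The median ratio of the AB level to the mean of both parents was 1.06, with quartiles of 0.739 and 1.40. It was 1.13 for 1017 genes with 10% to 90% from BB and 1.18 for 16589 genes under 10%, so a ratio near 1 is not particular to this class. Identifiers name the genome of the gene model, and whether AB carries the shared genes on an A chromosome was not tested.

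Genes without any count in 1 group were looked at apart. A set of 524 A genes had no count in the AA libraries and at least 10 in each AB library. Of these, 507 were shared with BB, 9 had no count in either parent and 8 were not shared. With no AA counts at mitosis, a gene stays under the 10% limit only through AA counts at meiosis. This split is therefore largely set by the choice. Against a floor of 3 counts over the 3 AA libraries, the 8 genes were at least 23.8-fold higher in AB in the lowest case, with a median bound of 42.7-fold. None of the 8 was at 0 in AA at meiosis, which the same limit fixed in advance. In the other direction 33 genes had no count in the AB libraries and at least 10 in each AA library. All 33 were not shared with BB, beside 21008 of the 23143 tested A genes. Counts in each AA library lower the BB share, and 0 counts in AB tend to leave out genes that BB reads reach. That none was shared was thus largely set by the choice as well. The 33 genes stood at 1.30 to 63.7 CPM in AA. They were at least 7.39-fold lower in AB in the lowest case, with a median bound of 17.0-fold. Of these 33 genes, 23 were at 0 in the AB libraries at meiosis as well.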

How the data were processed

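Raw counts for each gene, and FPKM values in another table, were deposited by the authors for 18 anther libraries. HTSeq 0.6.0, HISAT2 2.1.0, Bowtie 1.0.1 and TopHat2 are named, without their roles, per the submitters' processing notes. Genome build, annotation and strand setting: not given in the sources used here. In the count table, the first AA library at mitosis occurs in 2 identical columns, of which 1 was used. Groups and replicate numbers came from titles. A genes of the AB and AA libraries at both stages were fitted together in edgeR 4.0.16 (R 4.3.3), with library sizes and TMM factors from A counts, the filter for low counts by group, group means and the quasi-likelihood F test. P-values were adjusted over all 23143 tested A genes. This fit was tested on simulated data in which chosen genes had known fold changes. The share from BB is the mean BB CPM of all counts over the sum of the mean AA and BB CPM, 6 libraries each. Coding lengths are counts divided by FPKM and library total, and 99.9% are multiples of 3. Genes named in the text are the 2 with the largest gain and the 2 with the largest loss of mean CPM in AB, among genes not shared with BB, called, changed at least 2-fold and without overlap of libraries. Members, classes and tests were chosen with earlier results of these data known; the length and abundance classes were chosen after seeing the data. Alternatives were DESeq2 1.42.0, limma 3.58.1 on log2(FPKM + 1), other scalings, filters and class limits, a replicate block, the mitosis libraries alone, and leaving out each library in turn. A floor of 3 counts covers counting error only, since the labels mention no molecular identifiers that would tell PCR copies apart.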

Additional observations from a re-analysis of the deposited data

Results flagged for a closer look

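The difference between AB and AA itself differed between mitosis and meiosis, by the interaction test in edgeR with Benjamini-Hochberg adjustment, for 9440 A genes not shared with BB and for 3 of the 4 genes named. For BjuA005987 the log2 difference at mitosis minus that at meiosis was 1.73 (SE 0.18, edgeR adjusted p = 4.36e-08). For BjuA037680 it was 2.13 (SE 0.29, edgeR adjusted p = 1.84e-06) and for BjuA024156 1.10 (SE 0.27, edgeR adjusted p = 0.00157), so that both genes were further below AA at meiosis, on the log2 scale and at very low levels, than at mitosis. For BjuA005098 it was -0.52 and did not pass (edgeR adjusted p = 0.142). Groups of 3 libraries were not screened for single libraries that stand apart.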

How the results depend on the processing

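Of 189 recomputed values, 171 kept their direction and side of the threshold, or moved by under 1.5 times for counts or under 1 SD for shares. Without TMM factors 7073 genes not shared with BB were higher. With library sizes from all genes 1184 of them were higher and 13030 lower, 492 shared genes were lower and 350 meiosis-low genes were higher. With limma on log2(FPKM + 1) the values were 1186 and 13044, and 487 shared genes were lower. In these fits the scale of AB against AA is another by construction. With a limit of 1% for shared genes 2117 were higher and 1046 lower, and with 50% 5 were lower. With a limit of 0.2 CPM 232 meiosis-low genes were higher and 822 lower, and the difference in their share of A counts was -2.09 points. Without shared genes 323 were higher, with a share difference of -7.02 points. With 10 counts in all 6 mitosis libraries, an alternative chosen after seeing the data, 240 were higher and 1007 lower. These classes hold other genes than the main one by construction. When shared genes were taken out before scaling, 4576 of the rest were higher and 5841 lower. In the mitosis libraries alone 4599 were higher and 5406 lower. Leaving out each library in turn gave 3670 to 3900 genes not shared with BB higher and 5758 to 5910 lower. Equal replicate numbers showed at most a weak pairing of libraries, with correlations of deviations of 0.0290, 0.0380 and 0.0117 across 12895 genes. Each was above the -0.0283 to -0.00241 of unequal numbers, so a weak pairing is not excluded. The replicate block gave 4061 higher and 6155 lower. It moved no other count by over 1.5 times and no call of a named gene. The 4 named genes ranged over their 16 alternatives from 1.37 to 2.26 (BjuA005098), 1.81 to 2.70 (BjuA005987), -2.31 to -1.42 (BjuA037680) and -2.47 to -1.58 (BjuA024156) in log2 difference.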

Other observations

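A counts were spread over more genes in AB than in AA at mitosis. The number of A genes behind 50% of the A counts was 1029 ± 10.5 in AB and 680 ± 4.04 in AA at mitosis, and 1019 ± 4.58 in AB and 1171 ± 4.36 in AA at meiosis (SD, n = 3 libraries). The single most abundant A gene of a library took 1.30% ± 0.0324 of the A counts in AB and 2.83% ± 0.128 in AA at mitosis. The number of A genes with at least 1 count differed little, at 25302 to 25496 in AB libraries and 25268 to 25327 in AA libraries, although AB libraries held fewer A counts. In the BB libraries at mitosis 6559 to 7070 A genes had a count. How far reads from B copies add to the number in AB was not tested. Of the 13 tested genes with no counts in either parent, 12 were higher in AB at mitosis, with a median level of 3.82 CPM over the 13. Genes at 0 in AA pass the filter on low counts only through AB, so this direction was fixed by the choice.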
